A study of Homo sapiens with 96 samples.

Results

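The first hour of a transcription block was followed in A375 cells that had been kept in MAPK inhibitors. The comparison set the 3 libraries taken 1 h after triptolide against the 3 taken at 0 h, chosen by the pretreatment, arm and time in their labels, which makes 6 of the 96 libraries of the series. A375 is an established human melanoma line driven by mutant BRAF, and all libraries came from this line. In the 6 libraries, cells had received 500 nM vemurafenib (a BRAF inhibitor) and 500 nM cobimetinib (a MEK inhibitor) for 18 h, together called MAPKi, and then 25 µM triptolide, with the 0 h cells harvested at once. Beside them stand MAPKi cells given vehicle, MAPKi cells given 100 µg/ml cycloheximide 5 min ahead of the same triptolide, and cells kept in DMSO in place of MAPKi and then given triptolide, each at 0 h and 1 h with 3 libraries. The full series crosses both pretreatments with 4 arms (vehicle, cycloheximide, triptolide, both) and 4 times. Nothing in the labels says that the 3 libraries of a group came from separate cultures. The p-values of gene tests therefore measure only the spread between libraries of the same group, estimated over all 96 libraries together.

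Triptolide binds ERCC3 (XPB), the helicase of the general transcription factor TFIIH, and so stops RNA polymerase II from starting new transcripts. What then remains of an mRNA depends mainly, though not only, on its own decay. The mRNAs known to disappear first code for short-lived regulators, among them the AP-1 factors FOS and JUN, stress-response genes and feedback inhibitors of signalling. Many of these carry AU-rich elements in the 3′ UTR, which recruit proteins that shorten the poly(A) tail, and the decay of many mRNAs is coupled to their translation, which cycloheximide blocks at elongation.

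Counts came from QuantSeq, which primes on the poly(A) tail and reads near the 3′ end, on cytoplasmic RNA. The 6 libraries held 2381351 to 7831333 counts each, and the whole series reached 12520154. Of 44659 gene entries, 14948 passed the filter on low counts. The melanocyte-lineage markers summed to 2810 to 3740 CPM, that is counts relative to the library total, in the 6 libraries, with MITF, SOX10, DCT and S100B well expressed and MLANA, TYR and TYRP1 at most 2.68 CPM, and 8 of the 10 had counts in every library. The 10 keratinocyte, immune and endothelial markers summed to 125 to 161 CPM, mostly from KRT10, and KRT5, CD3E, PECAM1 and CDH5 were at 0. ERCC3, the target of triptolide, measured 32.7, 33.7 and 37.9 scaled CPM at 0 h and 37.1, 37.1 and 26.0 at 1 h. Scaled CPM are such values after scaling to 36 stable genes. The study also scaled to stable genes, by a rule that asks for a rise at 3 or 5 h of triptolide. It was read here as both times, and read as either time it gave 526 genes. Fewer cells and less RNA per cell cannot be told apart in such libraries.

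The library of 0 h replicate 2 stood apart. Its stable-gene scale relative to its total was 0.874, where the other 0 h libraries had 1.061 and 1.079 and the 1 h libraries 1.084 to 1.136. Its median gene stood at 113% of the 0 h mean, against 94.1% and 92.1% in the other 0 h libraries, and it was also the library with the fewest counts. Beside the number of calls in each list below stand the number with TMM, a scaling that sets the median gene near no change, and the number without this library. Over all 14948 genes tested, those called lower numbered 407 (2.72%), 100 with TMM and 82 without this library.

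FOS, JUN, KLF6 and NFKBIA, which led the falls of their families, are shown here with the first copy of the AU-rich core TATTTAT in the 3′ UTR of their MANE Select transcript, in capitals, because this element is a well-known mark of short-lived mRNAs. The windows were read from GRCh38 on the transcript's strand, at chr14:75282060-75282089 on the plus strand for FOS, and on the minus strand at chr1:58780818-58780847 for JUN, chr10:3778340-3778369 for KLF6 and chr14:35401698-35401727 for NFKBIA.
FOS: tgtttttaattTATTTATtaagatggattc
JUN: ttgcttatgaaTATTTATaacagcattctt
KLF6: tatgtttctctTATTTATgccttgaggact
NFKBIA: accacattttaTATTTATtgtgcttcgagt
CLK1, DUSP10, GADD45B and TXNIP, which also fell, had no such match in the 3′ UTR examined, which says only that these letters are not there.

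After 1 h of triptolide, 407 of 14948 genes were lower and 5 were higher at an adjusted p under 0.05 (edgeR, quasi-likelihood test with Benjamini-Hochberg adjustment), that is 2.72% and 0.0334% of genes. Of the 407, 128 had fallen at least 2-fold, 143 had fallen less than 1.5-fold, and in 364 all libraries at 1 h lay below all those at 0 h, which was so for 12.9% of all genes. The median gene had a log2 change of −0.17, and TMM scaling moved it to 0. TMM called 100 of the 407 lower, and its calls were 83.3% lower in place of 98.8%. Without 0 h replicate 2, 82 of the 407 were called. The number of calls in both directions, 412, also moved with other libraries: it was 83 without 0 h replicate 2, 177 without 1 h replicate 1, 142 without 1 h replicate 2 and 1757 without 0 h replicate 3.

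The typical transcript lost little in the hour. Over 8550 genes with at least 10 CPM at 0 h, the median remaining at 1 h was 89.1%, 84.6% and 87.4% of the 0 h mean in the 3 libraries, or 87.0% ± 2.27 (SD, n = 3). The 1 h libraries were all below the 0 h ones (exact permutation test, two-sided, p = 0.1, the smallest that 3 against 3 allows). Without 0 h replicate 2 the value was 93.9%, and with TMM it was 100%. In the vehicle arm, which had no transcription block, the same measure at the same scaling was 93.2% ± 3.07 (SD, n = 3) over 8662 genes, and 100% with TMM.

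**Figure D1:**
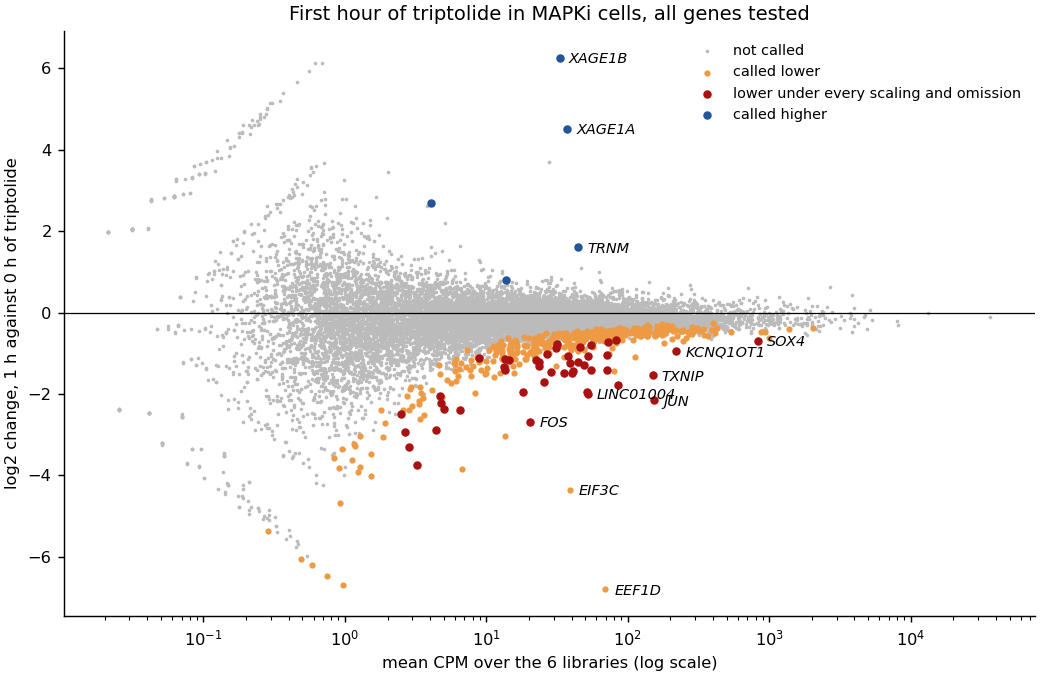
Each point is a gene, with its mean CPM over the 6 libraries on a log axis and its log2 change from 0 h to 1 h of triptolide after MAPKi. Orange and dark red points are the 407 genes called lower, dark red the 46 called under every scaling and every omission of a library, and blue the 5 called higher. FOS and JUN lie far below the band of other genes, and EEF1D and EIF3C, at the bottom, rest on 1 library.

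A set of 46 genes was called lower under all 6 scalings and with any of the 6 libraries left out, 0.308% of the genes tested. It is used below as the firm set, and it was chosen on these libraries, so its size of change here is a description. The word firm covers only these scalings and omissions of 1 library. Fitted on the 6 libraries alone, without the spread of the other groups, only 19 genes were called lower. Most of the 46 were therefore not called in that fit. In all 46 the 1 h libraries lay below the 0 h ones. The median remaining at 1 h was 38.5%, from 7.42% to 62.2%, and 38 had fallen at least 2-fold. Any gene called lower that is not in this set lost its call under at least 1 scaling or omission.

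The AP-1 factors, which dimerise to drive the early response to growth signals, held the deepest falls among mRNAs above 20 scaled CPM at 0 h, apart from entries that rest on 1 library. FOS stood at 27.9, 43.0 and 36.6 scaled CPM at 0 h and at 4.38, 6.17 and 5.77 at 1 h. All libraries at 1 h were far below all those at 0 h. Its log2 change was −2.68 ± 0.29 (SE; adjusted p = 1.5e-10, edgeR), which leaves 15.2% ± 2.62 (SD, n = 3) and would be an apparent half-life of 22.4 min if the loss was exponential. JUN was at 241, 252 and 251 scaled CPM at 0 h and 42.9, 55.2 and 70.2 at 1 h, again without overlap and with little spread at 0 h. JUN fell by 2.15 on the log2 scale (SE 0.15; adjusted p = 1.43e-19, edgeR), to 22.6% ± 5.5. JUNB went from 21.2, 19.1 and 35.2 to 9.81, 13.7 and 11.8 and ATF3, a stress-induced partner, from 37.9, 47.4 and 63.1 to 28.7, 25.0 and 34.4. Both were called lower, at log2 −1.15 and −0.78, and ATF3 missed the threshold with TMM (adjusted p = 0.138, edgeR) and without 0 h replicate 2 (adjusted p = 0.0558, edgeR). With these, 4 of 14 AP-1 genes tested were lower (3 with TMM, 3 without 0 h replicate 2) and 0 higher, and the median log2 change of the list was −0.43, beside −0.17 for all genes.

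**Figure D2:**
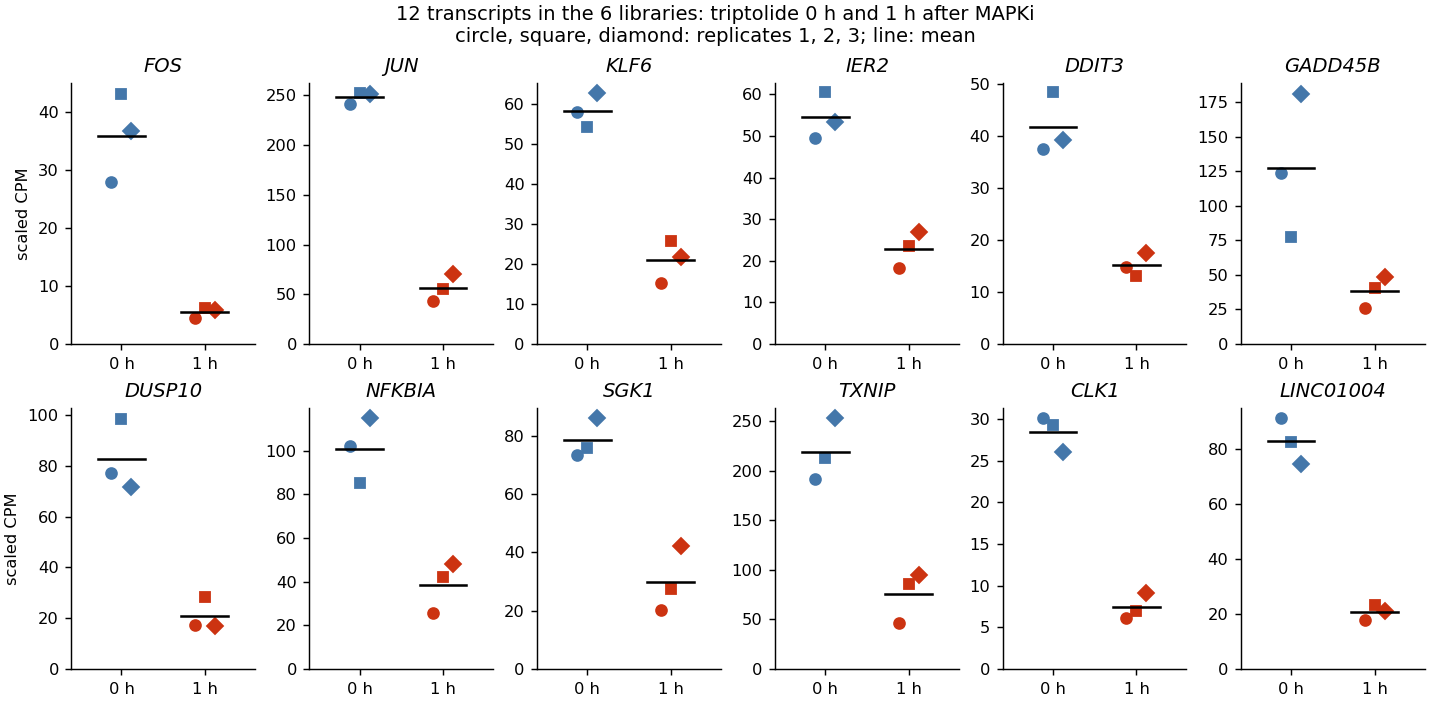
Scaled CPM of 12 transcripts in each of the 6 libraries, at 0 h in blue and 1 h in red, with symbols for the replicates and a line at each mean. In every panel the 3 libraries at 1 h lie below the 3 at 0 h, as for JUN at 241 to 252 against 42.9 to 70.2.

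Among the other immediate-early genes, which serum or growth factors switch on without new protein synthesis, 6 of 21 fell (4 with TMM, 5 without 0 h replicate 2), with a median of −0.32. That is 28.6%, beside 2.72% of all genes. TRIB1, a scaffold that leads proteins to degradation, dropped from 5.49, 12.2 and 7.19 scaled CPM to 1.23, 2.4 and 0.888. SGK1, a kinase close to AKT, went from 73.5, 75.8 and 86.1 to 20.2, 27.5 and 42.2, and IER2 from 49.6, 60.6 and 53.3 to 18.2, 23.5 and 26.9. None of these overlapped between times. Their log2 changes were −2.22, −1.41 and −1.24 (adjusted p = 4.83e-06, 2.29e-06 and 1.16e-06, edgeR). IER5 fell by 0.87, and rose in the same hour of vehicle, by 0.98.

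Of 17 stress-response genes 7 fell (4 with TMM, 5 without 0 h replicate 2), with a median of −0.30. GADD45B, which activates p38 and JNK signalling, stood at 124, 77.2 and 181 scaled CPM at 0 h and at 26.3, 40.2 and 48.4 at 1 h, a wide spread at 0 h that still left no overlap. DDIT3 (CHOP), the factor of the unfolded protein response, went from 37.4, 48.4 and 39.2 to 14.7, 13.1 and 17.5. DDIT4, an inhibitor of mTORC1, went from 66.1, 65.5 and 73.3 to 21.6, 29.9 and 33.1, and was also low after the hour of vehicle, at 54.0% ± 10.4 of 0 h. They fell by 1.78, 1.46 and 1.28 on the log2 scale (adjusted p = 4.47e-07, 1.27e-08 and 1.67e-05, edgeR). CEBPD, a transcription factor of the acute-phase response, fell by 0.97, from 20.5 to 31.0 scaled CPM down to 11.8 to 15.0. ATF4, PPP1R15A and PPP1R15B, which carry and end the integrated stress response, were the others called, at log2 −0.63, −0.87 and −0.89. Without 0 h replicate 2, ATF4 and PPP1R15B lost their calls (adjusted p = 0.566 and 0.122, edgeR).

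Of the feedback inhibitors of signalling listed, DUSP10 and NFKBIA fell and belonged to the firm set. DUSP10, a phosphatase of p38 and JNK, stood at 77.3, 98.7 and 71.9 scaled CPM at 0 h and 17.5, 28.3 and 16.9 at 1 h, with no overlap and 25.3% ± 7.80 remaining (log2 −1.94 ± 0.23; adjusted p = 4.49e-09, edgeR). The other called ERK feedback genes were near the limit of detection after MAPKi. DUSP1 was at 0.239, 1.95 and 4.74 scaled CPM at 0 h and at most 0.35 at 1 h. SPRY2 was at 1.43, 0 and 4.60 at 0 h and 0.35, 0 and 0.888 at 1 h, and no weight can be put on their folds. DUSP6 and SPRY4, which ERK activity normally keeps high, did not exceed 1.01 scaled CPM in any of the 6 libraries. The ERK feedback list had 3 of 13 members lower, also with TMM and without 0 h replicate 2, and a median of −0.41. NFKBIA (IκBα), which returns NF-κB to the cytoplasm, went from 102, 85.0 and 115 to 25.8, 42.0 and 48.2 scaled CPM. It fell by 1.4 (SE 0.17; adjusted p = 5.64e-09, edgeR), the only 1 of 17 NF-κB feedback and chemokine genes to do so in each of these fits, with a list median of −0.33. Of 18 receptor feedback genes 2 fell (0 with TMM, 1 without 0 h replicate 2), SOCS6 by 0.84, a call lost without that library (adjusted p = 0.136, edgeR), and the scarce SOCS3, at 0.489 to 6.04 scaled CPM at 0 h and 0.175 to 0.666 at 1 h, and the list median was −0.22. Of 12 ERK output genes 2 fell (1 with TMM, 2 without 0 h replicate 2), SPRY2 and PHLDA1, the latter from 119, 106 and 161 to 64.8, 78.0 and 104, with a median of −0.34.

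TXNIP, which binds thioredoxin and restrains glucose uptake, and its relative ARRDC3 were 2 of 5 alpha-arrestin genes called, also with TMM and without 0 h replicate 2, with a list median of −0.48. TXNIP dropped from 192, 213 and 253 scaled CPM to 46.4, 86.2 and 95.0 and ARRDC3 from 17.6, 21.5 and 19.0 to 5.96, 5.37 and 11.1. The groups did not overlap for either gene. The log2 changes were −1.53 ± 0.19 and −1.41 ± 0.24 (adjusted p = 9.7e-09 and 7.4e-05, edgeR).

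Transcription factors of the KLF, ID and SOX families were lost in part. KLF6, a zinc-finger factor of the early response, went from 58.0, 54.2 and 62.9 to 15.2, 25.8 and 21.8 scaled CPM, a log2 change of −1.47 ± 0.16 (adjusted p = 2.96e-10, edgeR). KLF9 and KLF3 each fell by 0.70, which made 3 of 13 KLF genes (1 with TMM, 1 without 0 h replicate 2) with a median of −0.29. Both lost their calls without that library (adjusted p = 0.0948 and 0.558, edgeR). The ID proteins, which block DNA binding of basic helix-loop-helix factors, were called for ID1, ID2 and ID4 at log2 −1.09, −0.74 and −0.68. ID1 held 153, 129 and 163 scaled CPM at 0 h and 37.5, 104 and 66.6 at 1 h, a wide spread at 1 h without overlap. ID2 lost its call without 0 h replicate 2 (adjusted p = 0.0822, edgeR), and the libraries of ID4 overlapped. The fourth of 14 genes of this list with TGF-β feedback was LDLRAD4, at most 1.15 scaled CPM at 0 h and 0 in all 1 h libraries, for which no fold is given. The list had 1 call with TMM and 2 without 0 h replicate 2, and its median was −0.50.

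SOX4 was the most abundant of the transcription factors named, at 934, 1110 and 966 scaled CPM at 0 h and 579, 548 and 746 at 1 h. It fell by 0.69 (SE 0.12; adjusted p = 5.28e-05, edgeR) and was in the firm set. SOX2 fell by 1.02 and SOX9 by 0.53, which made 3 of 9 SOX genes (2 with TMM, 1 without 0 h replicate 2) with a median of −0.30. Without that library SOX2 and SOX9 were not called (adjusted p = 0.151 and 0.0558, edgeR).

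mRNAs for the RNA machinery itself were also among the falls. CLK1, a kinase of SR splicing factors, went from 30.1, 29.3 and 26.0 scaled CPM to 6.13, 6.97 and 9.10, with no overlap and 26.0% ± 5.38 remaining (adjusted p = 9.7e-09, edgeR). TRA2B and SRSF6, splicing factors of much higher level, lost less, at log2 −0.43 and −0.36, and the SR list had 3 of 16 lower (1 with TMM, 1 without 0 h replicate 2) and a median of −0.24. The calls of TRA2B and SRSF6 were lost without that library (adjusted p = 0.226 and 0.829, edgeR), and the libraries of SRSF6 overlapped. Of 15 genes for decay adaptors, 4 fell (1 with TMM, 1 without 0 h replicate 2): ZFP36L1, which binds AU-rich elements, TOB2 and BTG1, which bring in the CCR4-NOT deadenylase, and RC3H2 (roquin-2). Their log2 changes were −0.75, −0.64, −0.62 and −0.49, and the list median was −0.44. Without that library ZFP36L1 alone kept its call, with TOB2, BTG1 and RC3H2 at an adjusted p of 0.0818, 0.0656 and 0.218 (edgeR), and with TMM BTG1 alone did. The deadenylases themselves, CCR4-NOT and PAN, had 0 of 14 called by edgeR or DESeq2, 2 at an unadjusted p under 0.05, and a median of −0.11. In elongation control, CCNT1 (cyclin T1) and its inhibitors HEXIM1 and LARP7 fell by 0.71, 0.50 and 0.41, 3 of 16 (1 with TMM, 0 without 0 h replicate 2) with a median of −0.34. Without that library their log2 changes were −0.49, −0.45 and −0.21 (adjusted p = 0.101, 0.298 and 0.733, edgeR). PCF11, which ends transcription at poly(A) sites, belonged to the firm set, at 32.2, 23.5 and 34.3 scaled CPM before and 11.6, 16.1 and 12.9 after. The polymerase II and TFIIH subunits had 0 of 18 called by either tool, 3 at an unadjusted p under 0.05, and a median of −0.10, and ERCC3 remained at 96.1% ± 18.5.

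The cell-cycle, survival, histone and housekeeping lists with calls had medians from −0.24 to −0.04, beside −0.17 for all genes. Their shares called lower ran from 2.5% for histone genes to 14.3% for G1 control, beside 2.72% of all genes. The zinc finger ZNF list, with 6.91% called, had a lower median. In G1 control 2 of 14 fell (0 with TMM, 1 without 0 h replicate 2), CDKN1B (p27) by 0.85 and CCNE2 by 0.80, with a median of −0.19. Among 32 mitotic regulators FBXO5, the inhibitor of the anaphase-promoting complex, went from 14.5, 28.3 and 13.7 scaled CPM to 3.15, 7.09 and 8.88, and TOP2A, a topoisomerase, fell by 0.38 with overlapping libraries, which made 2 calls (1 with TMM, 0 without 0 h replicate 2) and a list median of −0.13. Without that library FBXO5 had an adjusted p of 0.0558 and TOP2A a log2 change of −0.11 (adjusted p = 0.943, edgeR). BBC3 (PUMA) was the only call among 16 BCL2 family genes and 18 p53 targets, at log2 −0.84, with medians of −0.23 and −0.13. MED29 was the only one of 29 Mediator genes, at −0.58 with a median of −0.11. The calls of CCNE2, BBC3 and MED29 were lost without 0 h replicate 2 (adjusted p = 0.363, 0.303 and 0.363, edgeR), BBC3 and MED29 had overlapping libraries, and the BCL2, p53 and Mediator lists had 0 calls with TMM. Among replication-dependent histone genes, H1-3 fell by 1.48, from 16.5, 11.2 and 14.7 scaled CPM to 7.36, 3.09 and 5.55, 1 of 40, also with TMM and without 0 h replicate 2, with a median of −0.24. RPL36A and RPS27L were 2 of 75 cytosolic ribosomal protein genes called, at −0.70 and −0.48, with a median of −0.04. Both had overlapping libraries and lost their calls without 0 h replicate 2 (adjusted p = 0.548 and 0.928, edgeR), and the list had 0 calls with TMM. Of zinc finger ZNF genes, many of them KRAB repressors, 28 of 405 fell (6 with TMM, 4 without 0 h replicate 2) with a median of −0.34, or −0.16 with TMM, among them ZNF431 from 32, 40.1 and 25.9 to 12.4, 12.6 and 16.4, and ZNF397, ZNF493 and ZNF649. The last 3 were not called without that library (adjusted p = 0.0511, 0.419 and 0.0948, edgeR).

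No gene was called in either direction by edgeR in several lists, and the genes below an unadjusted p of 0.05 and lower are given beside them. They were 1 of 11 in the MYC and MAX network (list median −0.12), 2 of 19 clock genes (−0.27), 3 of 11 HES and Notch feedback genes (−0.37), 3 of 14 ETS factors (−0.22) and 2 of 15 YAP targets (−0.07). They were 6 of 45 replication genes (−0.02), 5 of 16 glycolysis genes (−0.15), 8 of 30 proteasome genes (−0.10), 12 of 66 nuclear-encoded respiratory genes (−0.05), 2 of 10 melanocyte genes (−0.25) and 1 of 5 genes of other cell types (−0.48). Higher at that p were 2 HES, 2 proteasome, 1 clock and 1 replication gene. DESeq2 called 2 of the ETS factors, 1 glycolysis gene and 1 respiratory gene lower and 0 in the other lists. It called 607 of all 14948 genes tested lower. Of all 14948 genes tested, 2643 were lower and 196 higher at the unadjusted p, and their median log2 change was −0.17. The medians of the clock, HES, ETS, melanocyte and other cell type lists lay below that of all genes. Those of the other lists without a call lay above it. Both statements held with TMM as well.

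**Figure D3:**
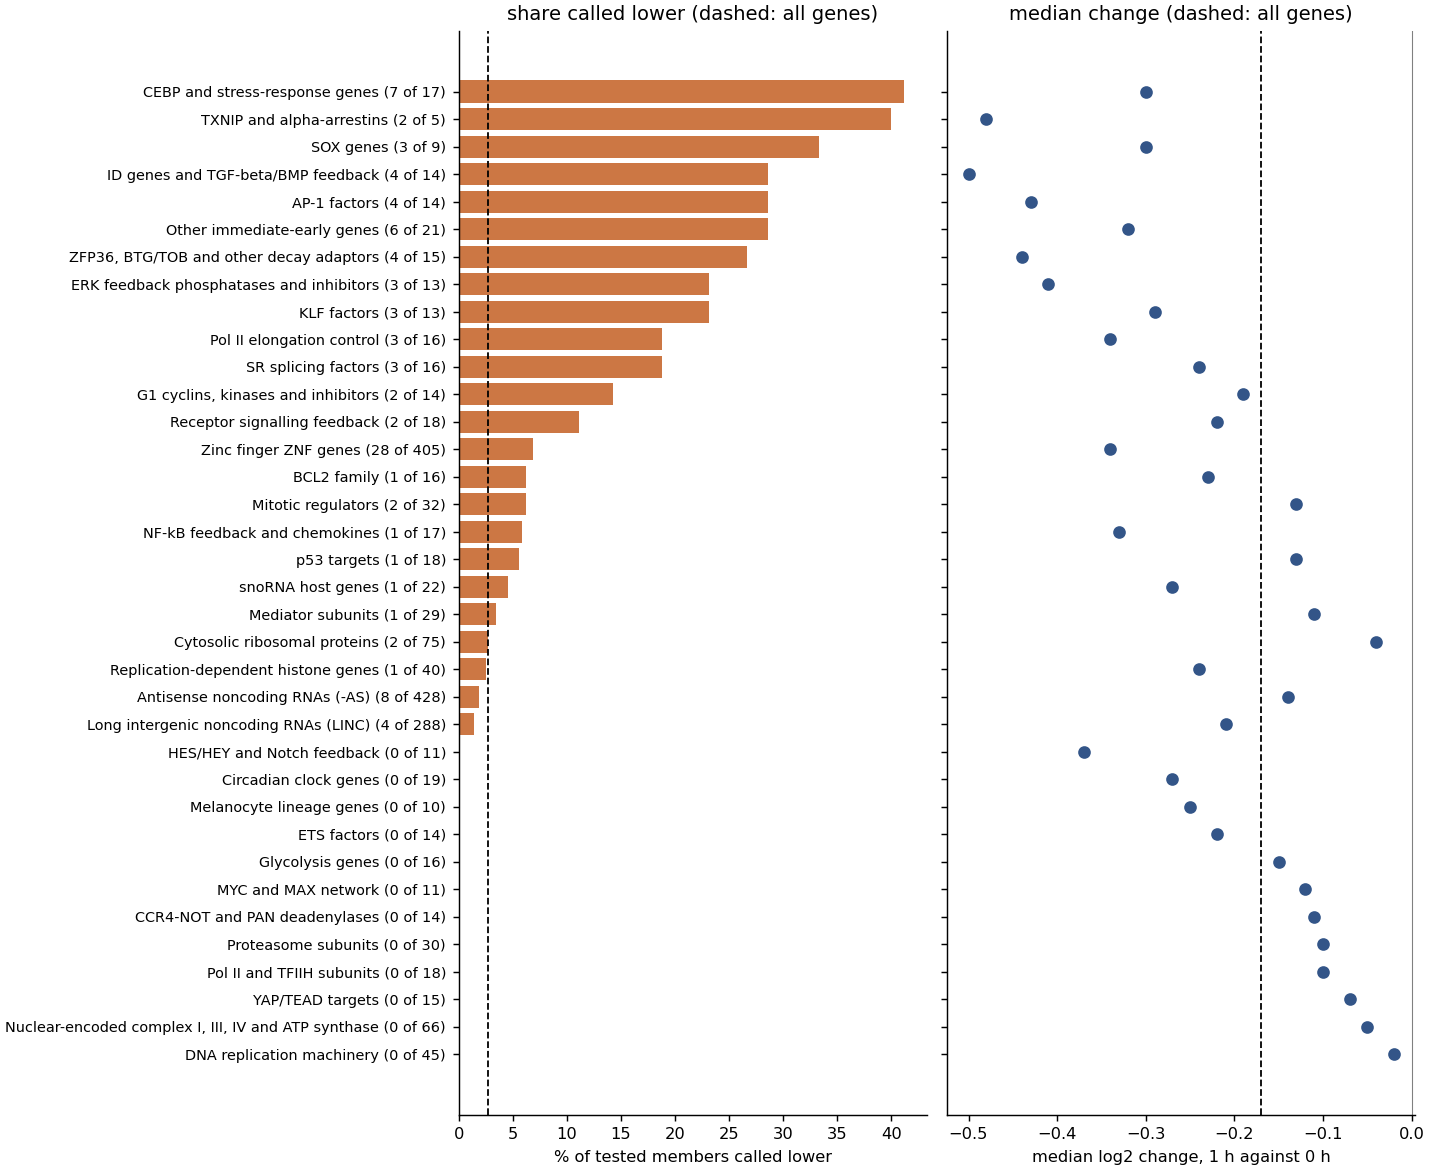
Share of tested members called lower (bars, %) and median log2 change from 0 h to 1 h (points) for each gene list, with dashed lines at all genes (2.72% and −0.17). Stress-response genes reach 41.2% (7 of 17) and the alpha-arrestins 40% (2 of 5), where TMM called 4 and 2, and 12 of the lists drawn have 0 called.

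Noncoding transcripts and pseudogenes were well represented in the firm set, 14 of 46, counting entries with no match in the annotation, where 12037 of the 14948 genes tested were protein-coding. Over all genes 2.68% of protein-coding and 2.64% of lncRNA entries were lower, and 8.33% of 48 processed pseudogenes. LINC01004 was at 91.1, 82.6 and 74.3 scaled CPM at 0 h and 17.9, 23.2 and 21.1 at 1 h, a change of −1.99 ± 0.20 (adjusted p = 2.37e-11, edgeR). KCNQ1OT1, the antisense RNA of an imprinted locus, went from 269, 345 and 242 to 146, 147 and 149. It fell almost as far in the same hour of vehicle, to 56.5% ± 9.35 of 0 h, beside 51.7% ± 0.592 in triptolide. MIR222HG, the host transcript of miR-221 and miR-222, went from 10.5, 16.6 and 7.19 to 1.75, 2.29 and 1.78. In each of these the 1 h values were tight and well below the 0 h values. The host transcript MIR17HG was scarcer, at 2.62, 2.93 and 6.75 before and 0.876, 0.914 and 0.444 after. Of LINC genes 4 of 288 fell (1 with TMM, 1 without 0 h replicate 2), LINC01004, LINC00461, LINC01560 and LINC00839, with a median of −0.21. Of antisense genes 8 of 428 fell (2 with TMM, 2 without 0 h replicate 2), with a median of −0.14, led by STAM-AS1, NFYC-AS1, PCF11-AS1 and FRMD6-AS1. These shares, 1.39% of LINC and 1.87% of antisense genes, lay below the 2.72% of all genes. Without that library, LINC01004 and NFYC-AS1 kept their calls among these 8 named genes, and the others did not. NFYC-AS1 and PCF11-AS1 overlap NFYC and PCF11 on the other strand, as LINC01004, JUNB and DDIT3 overlap KMT2E, HOOK2 and MARS1, and since the strand setting of the counting is not given in the sources used here, reads of the partners may be mixed. SNHG1 was 1 of 22 snoRNA host genes called, at −0.57 with a median of −0.27, and was not called with TMM or without 0 h replicate 2 (adjusted p = 0.0885 and 0.285, edgeR). The pseudogenes PA2G4P4 (36.0, 50.3 and 31.6 to 11.4, 11.9 and 12.2 scaled CPM), RPL23AP32 and HSP90AB4P share sequence with their parent genes and overlap LINC00886, SPTBN1 and ADAM10 on the same strand, so their counts are uncertain. HSP90AB4P was not called without 0 h replicate 2 (adjusted p = 0.24, edgeR).

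Among entries of at least 5 CPM over the 6 libraries, the 4 largest fitted falls and the 3 largest rises rested on single libraries. EEF1D had 475 scaled CPM in 0 h replicate 2 and 0.526 to 2.17 in the other 5 libraries. EIF3C had 240 in 0 h replicate 2 and at most 10.5 elsewhere, CANX_1 had 77.2 there, and CHCHD10_1 had 34.8 in 0 h replicate 1. Without 0 h replicate 2, EEF1D and EIF3C were not called (adjusted p = 1 and 0.87, edgeR), nor was CANX_1 (adjusted p = 0.97, edgeR). Of the 5 rises, XAGE1B had 177 scaled CPM in 1 h replicate 3 alone, XAGE1A 188 in 1 h replicate 2 alone, and TRNM, a mitochondrial tRNA, 163 in 1 h replicate 1 against 14.2 to 31.8 elsewhere. MTCH2_1, outside the rule for named genes and named after its values were seen, had 0.716, 1.95 and 0.719 at 0 h and 12.1, 6.52 and 0.888 at 1 h. Without 0 h replicate 2, XAGE1A, TRNM and MTCH2_1 were not called (adjusted p = 0.155, 0.0813 and 0.101, edgeR). SPCS2, a signal peptidase subunit, was the remaining one, with 7.39, 5.86 and 13.7 scaled CPM at 0 h and 19.6, 16.5 and 14.2 at 1 h (log2 0.80 ± 0.23; adjusted p = 0.0389, edgeR). It too lost its call without 0 h replicate 2 (adjusted p = 0.38, edgeR). XAGE1A and XAGE1B are near-identical copies, and EIF3C has such a copy in EIF3CL, so reads can be split among them. Below 5 CPM, falls of such size also came without a single high library, as for LOC105372118 in the firm set, from 6.44, 7.33 and 4.74 scaled CPM to 0.701, 0.229 and 0.444 (log2 −3.75).

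Among the remaining falls named by rank, PIK3R3, ADM, MIR193BHG, LOC101927610 and LOC101930275 had 5.49 to 18.6 scaled CPM at 0 h and log2 changes from −1.97 to −1.55. PIK3R3, a regulatory subunit of PI3-kinase, went from 13.4, 16.6 and 9.77 to 4.21, 1.6 and 4.44, and ADM (adrenomedullin) from 6.44, 12.7 and 9.48 to 1.4, 3.54 and 4.44. None of these 5 belonged to the firm set, and none was called without 0 h replicate 2 (adjusted p from 0.051 for ADM to 0.298 for LOC101927610, edgeR).

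The genes that fell were also described by the make-up of their mRNAs. Of 323 protein-coding genes called lower, 52.6% held TATTTAT in the 3′ UTR, against 37.3% of 12029 tested, and in the firm set of 32 coding genes 53.1%. Their 3′ UTRs were longer, with a median of 1829 against 1374 bases. In the last 300 bases alone, where length plays no part, 16.1% of called and 30% of firm genes held the element, against 12.1% of all. By number of copies, 2.03% of genes with 0, 3.55% with 1 and 4.09% with 2 or more were called, and the median log2 change was −0.17, −0.16 and −0.17. The Pumilio-type element TGTANATA was also more frequent, in 46.4% of called and 37.5% of firm genes against 31.2% of all, and in the last 300 bases in 17.7% and 16.7% against 11.1%. Coding exon junctions were sparser, with a median of 3.67 per kb of coding sequence in the called genes and 2.11 in the firm set against 6.04 over all. These are descriptions, and both elements were searched on the transcript's strand only.

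The hour itself and the harvest gave few calls without triptolide. In the vehicle arm after MAPKi, 17 genes were called between 0 h and 1 h (0.114% of genes, TMM). TXNIP and KCNQ1OT1 were lower there too, at log2 −0.80 and −0.72. NARS2, ZNF234 and KLHL36 were the other lower genes. With the stable-gene scaling used for triptolide, 9 genes were lower and 8 higher in vehicle, with a median log2 change of −0.10, beside −0.17 in triptolide. TXNIP and KCNQ1OT1 were then at −0.91 and −0.82 in vehicle, beside −1.53 and −0.94 in triptolide. Of the firm set, 11 of 46 stood below 75% of 0 h after the vehicle hour at that scaling, among them DDIT4 at 54.0% and RGS16, a regulator of G-protein signalling, at 60.5%. The median of the set was 92.3% there, beside 92.9% for all genes tested. The share of all genes below 75% was not counted, so the 11 have no background to be read against. DDIT4 missed the threshold with TMM (log2 −0.77; adjusted p = 0.0868, edgeR) and passed it with stable-gene scaling (log2 −0.88; adjusted p = 0.0225, edgeR). Higher were CCN1, CCN2, TNFAIP3, DUSP1, KLF6, FAM43A, BCL6, GADD45A, RND3, IER5, RHOB and AMD1, led by CCN1 at 3.50. With this change in vehicle subtracted from that in triptolide, 54 genes were called lower and 2 higher. Against vehicle at 0 h, the 0 h triptolide libraries differed in 3 genes (0.0201%), EEF1D, CHCHD10_1 and EIF3C, the entries with 1 high library.

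In DMSO cells the same hour of triptolide brought 87 genes down (0.582%). Of the firm set, 25 of 46 were called lower there, and its median remaining was 54.1%, from 3.91% to 98%, with 95% for all genes. JUN remained at 46.6% ± 8.14 in DMSO and at 22.6% ± 5.5 in MAPKi, and FOS at 39.9% ± 15.2 and 15.2% ± 2.62. LINC01004 went the other way, at 9.71% ± 1.02 in DMSO and 25.1% ± 3.25 in MAPKi. None of these differences passed the test of the difference itself (adjusted p = 0.0865, 0.474 and 0.201, edgeR). Only 2 genes did, 0.0134%: EEF1D, which rested on 475 scaled CPM in MAPKi 0 h replicate 2 and 312 in DMSO 1 h replicate 3, and NEAT1, the architectural RNA of paraspeckles. NEAT1 stood at 1990, 2060 and 1630 scaled CPM at 0 h and 2250, 1350 and 1690 at 1 h after MAPKi, overlapping and at 93.1% ± 24.0, whereas it reached 212% ± 36.3 of 0 h in DMSO (difference −1.19; adjusted p = 0.00226, edgeR). The NEAT1 call was lost without replicate 2 of each group (−1.10; adjusted p = 0.675, edgeR) and without replicate 3 (−1.08; adjusted p = 0.0743, edgeR). The firm set held 0 calls by edgeR, 24 lower and 2 higher at an unadjusted p under 0.05, and 1 call by DESeq2, JUN. Over all 14948 genes tested, 1000 were lower and 269 higher at that p, and DESeq2 called 3 lower and 1 higher. Over the set the difference had a median of −0.59 and was above 0 in 9 of 46, with −0.09 over all genes. The set was chosen on the MAPKi libraries that enter this difference, which bears on its sign.

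With cycloheximide ahead of triptolide, MAPKi cells lost little in the hour. There 22 genes were called lower (0.147%), and the firm set had a median of 80.4% remaining, beside 100% for all genes. The difference between the arms was called higher, that is a smaller loss with cycloheximide, in 17 genes (0.114%) and lower in 2 (0.0134%). Over all genes this difference had a median of 0.19 and was above 0 in 72.6%, and TMM moved the median to −0.01. In the firm set the median was 0.92, above 0 in 45 of 46. FOS remained at 67.7% ± 7.92 with cycloheximide and 15.2% ± 2.62 without (difference 2.10 ± 0.37; adjusted p = 0.000671, edgeR). JUN remained at 81.6% ± 6.68 and 22.6% ± 5.5 (1.86 ± 0.20; adjusted p = 5.06e-10, edgeR), and CLK1 at 97.4% ± 9.27 and 26.0% ± 5.38 (1.92 ± 0.32; adjusted p = 0.000162, edgeR). GADD45B, TXNIP, ARRDC3, DDIT4, KLF6, NFKBIA, KLHL21 and TRA2B were also called higher, at 1.76, 1.64, 1.46, 1.32, 1.26, 1.15, 0.76 and 0.67. Further calls included CHSY1, a chondroitin synthase, TET3, an enzyme of DNA demethylation, LOC105374748, EIF3C and LDLRAD4, and the 2 lower ones were XAGE1B and TRNM. XAGE1B rests on 1 h replicate 3 of triptolide alone, and TRNM on 163 scaled CPM in 1 h replicate 1 of triptolide and 199 in 0 h replicate 2 of the cycloheximide arm. With each replicate number left out of all groups in turn, JUN and TXNIP kept their calls throughout. FOS, KLF6 and GADD45B lost theirs without replicate 1 (adjusted p = 0.248, 0.143 and 0.361, edgeR), CLK1 without replicate 2 (adjusted p = 0.0537, edgeR), and the other genes named here in at least 2 of the 3 omissions. With TMM the difference was called higher in 9 genes. NFKBIA, TET3, DDIT4, ARRDC3, CHSY1, TRA2B and KLHL21 lost their calls there (adjusted p from 0.0791 for NFKBIA to 0.566 for KLHL21, edgeR).

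Coding and noncoding members of the firm set stood at unlike levels in this arm. The 32 coding genes had a median of 84.6% remaining with cycloheximide, from 50.8% to 108%, against 41.6% without, and 1 of them, MSANTD2, was called lower. The 14 noncoding, pseudogene or unmatched entries had 38.4% with and 25.1% without, and 9 were called lower with cycloheximide. MIR222HG remained at 21.5% ± 8.47 with cycloheximide and 17.0% ± 2.64 without, PA2G4P4 at 39.4% ± 12.7 and 30.1% ± 1.05, and LINC01004 at 34.3% ± 4.69 and 25.1% ± 3.25. Of the coding genes 11 had a called cycloheximide difference and of the others 1. Whether the difference itself differs between the classes was not tested. The set was chosen on the libraries without cycloheximide, which makes a smaller loss in the other arm more likely.

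**Figure D4:**
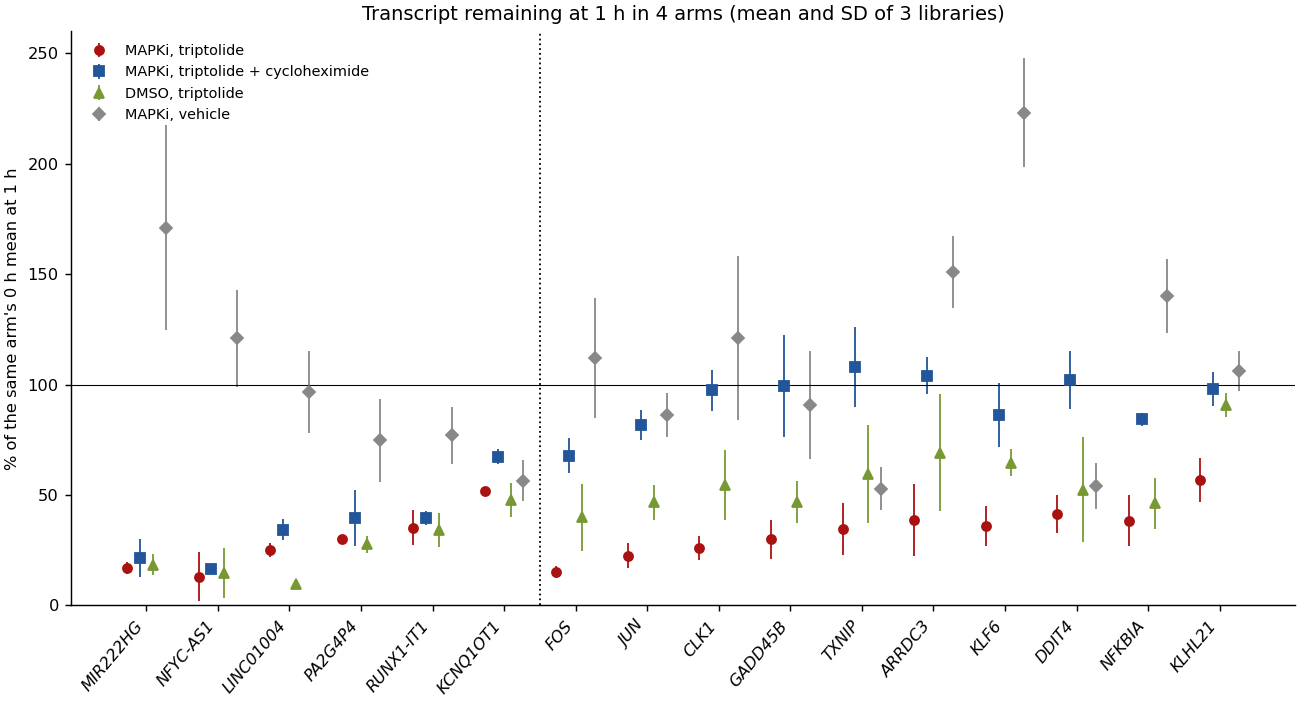
Percent of the same arm's 0 h mean at 1 h (mean and SD, n = 3) for 16 members of the firm set in MAPKi with triptolide, MAPKi with triptolide and cycloheximide, DMSO with triptolide, and MAPKi with vehicle, with noncoding and pseudogene entries left of the dotted line. With cycloheximide JUN stands at 81.6% and MIR222HG at 21.5%.

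The later times set the first hour in its course. The firm set had a median of 9.96% remaining at 3 h and 7.51% at 5 h, where all genes had 69.5% and 60.3%. These percentages use the stable genes, which were chosen for a rise at 3 h and 5 h of triptolide. With TMM the median log2 change over all genes at 5 h was 0.06, in place of −0.70. From 1 h to 3 h it was 0.05 with TMM, in place of −0.31. FOS fell on to 1.34% at 3 h and 0.29% at 5 h, JUN to 1.41% and 0.653%, and NFKBIA to 1.47% and 1.03%. The log2 change per hour was steeper in the first hour than from 1 h to 3 h in 10 genes (0.0669%) and shallower in 92 (0.615%), in a test that shares the 1 h libraries between both rates. LINC01004 was at 25.1% at 1 h and 25.5% at 3 h, with no further loss seen up to 3 h (difference −2; adjusted p = 1.07e-06, edgeR). SNAR-G1 and CSMD2 also had a steeper first hour, at −1.59 and −1.51, with SNAR-G1 at 36.0% at 1 h and 44.7% at 3 h, and with no call for CSMD2 in the first hour (adjusted p = 0.124, edgeR). The rate difference of LINC01004 kept its call with any replicate number left out, that of SNAR-G1 was lost without replicate 2 (adjusted p = 0.634, edgeR), as was its first-hour call without 0 h replicate 2 (adjusted p = 0.0948, edgeR), and that of CSMD2 was lost in each omission.

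Among the called rate differences, delayed loss was the more frequent pattern. IRF2BPL remained at 96.4% ± 7.65 at 1 h and 9.48% at 3 h, MED26 at 97.4% ± 23.0 and 7.36%, SERTAD1 at 73.2% ± 8.79 and 4.25%, and TIPARP at 66.9% ± 9.93 and 3.02%. These 4, known regulators of transcription, were chosen after their values were seen, and their first hours were not called. Their differences in rate were 1.61, 1.78, 1.6 and 1.68 (adjusted p = 1.07e-06, 0.000994, 5.87e-05 and 0.00121, edgeR). LOC112268009 stood at 5.01, 10.8 and 6.90 scaled CPM at 0 h and 14.2, 9.26 and 13.5 at 1 h, and at 1.99% of 0 h by 3 h (rate difference 3.77; adjusted p = 6.03e-11, edgeR). PARS2, the mitochondrial prolyl-tRNA synthetase, was at 65.8% ± 33.5 at 1 h and 0 at 3 h. Among the genes that fell in the first hour, SOX4, SOX9, ID2, NFKBIA and PHLDA1 lost more per hour afterwards, with rate differences of 0.64, 0.70, 0.94, 0.94 and 0.97. The firm set mostly went the other way. Its rate difference had a median of −0.45 and was above 0 in 11 of 46, with 0.03 over all genes. In it 3 genes were called with a steeper first hour and 2 with a shallower one. The set was chosen on its first-hour falls, which bears on this sign. With a replicate number left out, the rate differences of IRF2BPL, SERTAD1 and LOC112268009 kept their calls throughout, those of MED26, PARS2, SOX4, SOX9, ID2, NFKBIA and PHLDA1 lost them in 2 of 3 omissions, and that of TIPARP without replicate 1.

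**Figure D5:**
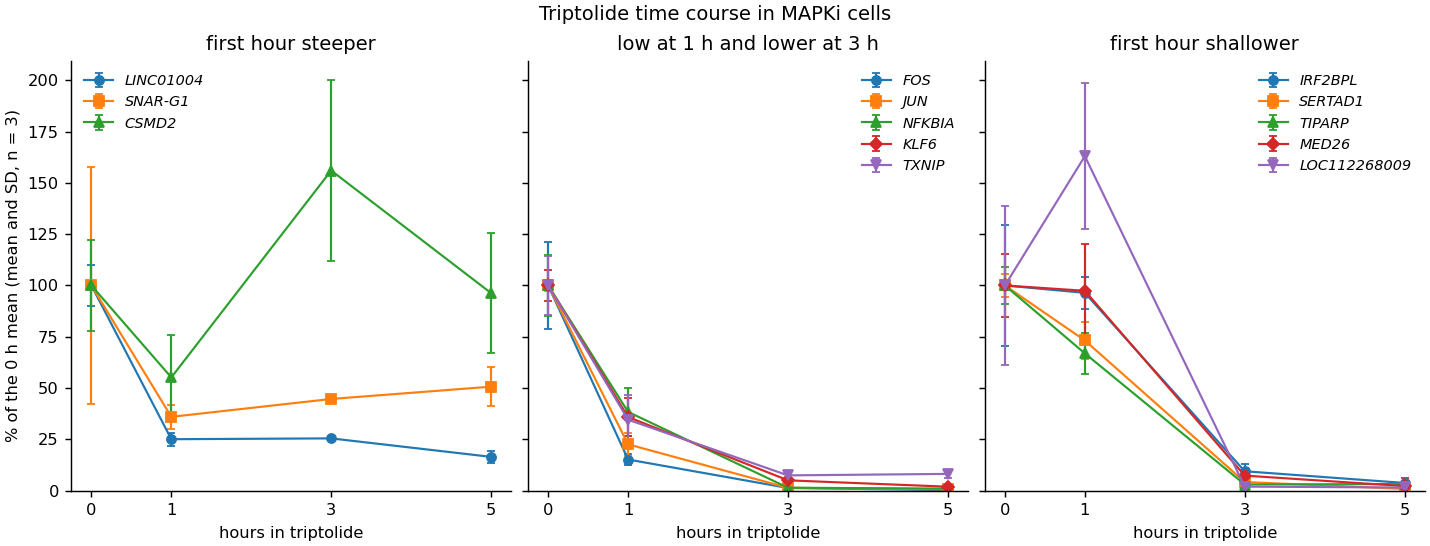
Percent of the 0 h mean (mean and SD, n = 3) against hours in triptolide after MAPKi, in 3 panels: transcripts with a steeper first hour, transcripts low at 1 h and lower at 3 h, and transcripts with a shallower first hour. LINC01004 is at 25.1% and 25.5% at 1 h and 3 h, and IRF2BPL at 96.4% and 9.48%.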

How the data were processed

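QuantSeq libraries of A375 cytoplasmic RNA were deposited as raw counts per gene, whole numbers with no normalization. Per the labels and the study's methods, the authors trimmed reads with fastp 0.20.1, mapped them to GRCh38.p13 with HISAT2 2.2.1 and counted them with HTSeq 0.13.5. The strand setting is not given in the sources used here. The sources name no molecular identifiers, so a molecule read repeatedly was counted each time. ERCC spike-ins were added, but the table has 0 such entries.

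Groups came from the labels. A quasi-likelihood model with 1 mean for each of 32 groups was fitted to all 96 libraries with edgeR 4.0.16 in R 4.3.3, after filterByExpr. Tests were two-sided, with Benjamini-Hochberg adjustment over 14948 genes and a threshold of 0.05. Triptolide contrasts used DESeq2 1.42.0 median-of-ratios size factors over 36 stable genes, 31 of them without a 0, defined by the study's rule: over 0.2 CPM in vehicle at 0 h, at least 1.1 times that at 3 h and at 5 h of triptolide, and an initial value over 10% of the later. The study's wording, 3 or 5 h, was read as both. Vehicle contrasts and the comparison of 0 h libraries used TMM. The 3 libraries of a group were not copies of each other (chi-square per degree of freedom 5.54 to 16.1 in the 6 libraries). Scripts were tested on simulated data.

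Members, gene lists and comparisons were chosen with earlier results of these data known. Genes were named by rule: the 20 largest falls and 8 largest rises called with at least 5 CPM in the 6 libraries, the 4 largest in each direction for each difference, up to 4 falls and 2 rises in each list, and ERCC3, CDK7, POLR2A, DUSP6, SPRY4, RNR1 and RNR2. Of these, CDK7 had too few counts to be tested, POLR2A stayed at or under 1.15 scaled CPM, and the mitochondrial rRNAs RNR1 and RNR2 changed by 0.07 and −0.11 on the log2 scale. Gene symbols were matched to a GRCh38 annotation (27026 by symbol, 311 by synonym), which gave the 3′ UTRs, coding exons and sequences. Alternatives were other scalings, DESeq2, no filter, a replicate block, omitted libraries and other references.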

Additional observations from a re-analysis of the deposited data

Results flagged for a closer look

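Differences between conditions passed their own test (edgeR, adjusted p under 0.05) in these cases, given as values. The first-hour change differed between MAPKi and DMSO in 2 genes, NEAT1 at −1.19 and EEF1D at −13.15 on the log2 scale, the latter with 1 high library in MAPKi at 0 h and 1 in DMSO at 1 h. The NEAT1 call was lost without replicate 2 or replicate 3.

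It differed with cycloheximide in 19 genes. The named ones with a smaller loss were TRA2B at 0.67, NFKBIA at 1.15, KLF6 at 1.26, DDIT4 at 1.32, ARRDC3 at 1.46, TXNIP at 1.64, GADD45B at 1.76, JUN at 1.86, CLK1 at 1.92, FOS at 2.10, EIF3C at 4.62 and LDLRAD4 at 10.74. Of these, TRA2B, NFKBIA, DDIT4 and ARRDC3 were not called with TMM. LDLRAD4 was at 0 at 1 h without cycloheximide, so that its value depends on the prior count, and EIF3C had 1 high library at 0 h. XAGE1B at −6.78 had 1 high library at 1 h, and TRNM at −4.14 had 1 at 1 h and another at 0 h of the cycloheximide arm.

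The rate of change differed between the first hour and the next 2 h in 102 genes. It was steeper in the first hour for LINC01004 at −2, SNAR-G1 at −1.59 and CSMD2 at −1.51, and for LINC00461 at −3.73, a gene of at most 4.05 scaled CPM in the 6 libraries, and EIF3C at −4.47, with 1 high library. It was shallower for SOX4 at 0.64, SOX9 at 0.70, NFKBIA at 0.94, ID2 at 0.94, PHLDA1 at 0.97, PARS2 at 3.43 and LOC112268009 at 3.77. TRNM at 2.37, XAGE1A at 6.88 and XAGE1B at 9.09 also had 1 high library at 1 h.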

How the results depend on the processing

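The count of genes called depended on the scaling and on single libraries. In place of 412 first-hour calls, TMM gave 120, total counts 148, mitochondrial rRNA 110, stable genes rising at 3 h or 5 h 224, and stable genes of both arms 251 (chosen after seeing the data, since the planned version with both times left 1 gene and could not be fitted). The 6 libraries alone gave 19, vehicle at 1 h as the reference 150, vehicle at 0 h 241, and the change minus that in vehicle 56. DESeq2 gave 616, no filter 604 and robust dispersion (also added) 417. Omitting a replicate number gave 54 to 1800, and omitting 1 library 83 to 1757. The median remaining, 87.0%, was 100% with TMM, 97.0% with total counts, 92.8% with mitochondrial rRNA, 90.8% with the stable genes of both arms, and 83.7% to 93.9% with 1 library omitted.

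The difference from DMSO, 2 calls, had 4 with DESeq2, 67 without the filter and 0 to 2 with a replicate omitted. The cycloheximide difference, 19, had 11 with TMM, 9 with mitochondrial rRNA, 34 with DESeq2, 51 without the filter and 4 to 11 with a replicate omitted. The rate difference, 102, had 155 with stable genes of both arms, 167 without the filter and 26 to 124 with a replicate omitted. The vehicle hour, 17, had 39 with DESeq2, 39 without the filter and 3 to 11 with a replicate omitted. The 0 h comparison, 3, had 124 without the filter and 0 to 8 with a replicate omitted. The causes of these shifts were not tested.

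Replicate numbers did not pair the libraries: the correlation of same-numbered deviations was 0.092, −0.444 and −0.495, and libraries of replicates 2 and 3 correlated best with the other number. With the replicate block the calls were 587, 2, 20, 114, 24 and 1 in the order above, with the median at 88.1%, and no named gene lost its call.

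For the 90 named genes tested there were 1968 alternative values. In 1353 the call, or its absence, stayed the same, and in 600 the direction stayed but the call was lost. In 3 a call was gained, and in 12 the direction reversed. A reversal was counted only where the main or the alternative value was called. Any change of sign in a gene called in neither is among the 1353. The reversals were EEF1D at 0.30, CHCHD10_1 at 0.92 and SPCS2 at −0.28 against vehicle at 0 h, CANX_1 at 0.22 against vehicle at 1 h, CHCHD10_1 at 0.28 and 0.18 without replicate 1 or its 0 h library, CANX_1 at 0.18 and 0.48 without replicate 2 or its 0 h library, XAGE1A at −0.29 and −0.06 without replicate 2 or its 1 h library, and TRNM at −0.65 and −0.56 without replicate 1 or its 1 h library. With a replicate number omitted these ran from −4.82 to 0.28, −3.68 to 0.18, −0.29 to 5.25 and −0.65 to 2.39. Apart from SPCS2, these entries had 1 library far above the rest.

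The p-values of gene tests cover the spread between the 3 libraries of a group, which the main fit estimated over all 96 libraries together. At 2381351 counts in the shallowest library, genes near 1 CPM rest on a few reads, and the folds of DUSP1, SPRY2, SOCS3, STAM-AS1 and LINC00461 are imprecise for that reason.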
